A study of Mus musculus with 6 samples.

Results

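RNA-Seq gave the mRNA level of 10 regulators of the integrated stress and unfolded protein responses in MLL-AF9 leukemia cells, taken from the bone marrow of mice given vehicle or DS-5272. They were chosen by name, out of 26082 gene names in the expression table. They form an ATF4 arm of 7 genes (Atf4, Atf5, Ddit3, Trib3, Chac1, Asns and Ppp1r15a) and an XBP1 and chaperone arm of 3 genes (Xbp1, Hspa5 and Herpud1). Each had a single line in the table. All 6 samples were C57BL/6J cells carrying the MLL-AF9 fusion, which models AML by driving hematopoietic progenitors of the c-Kit+ type with a retrovirally delivered oncogene. Per the study's methods such cells were passed through several rounds of transplantation before use, which selects for strong leukemogenicity. The vehicle group had 3 samples, and 3 samples came from animals that took 80 mg/kg of DS-5272, an inhibitor of the binding between p53 and MDM2, by mouth 24 h before the cells were collected. The labels give no age and do not say that each sample is a separate mouse, so p-values measure the spread between these samples only.

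Cells under stress slow protein synthesis by phosphorylating the initiation factor eIF2α, through kinases that sense amino acid shortage, unfolded proteins in the endoplasmic reticulum (ER), heme shortage or double-stranded RNA. This integrated stress response raises translation of the transcription factor ATF4, which switches on genes for amino acid supply and, if the stress lasts, the CHOP program that can end in cell death. The unfolded protein response of the ER uses the kinase PERK to reach the same eIF2α, and beside it the sensors IRE1, which splices Xbp1 mRNA, and ATF6, which together raise chaperones and ER-associated degradation. ATF4 is regulated largely in translation and XBP1 largely in splicing, and neither step is measured by total mRNA. In acute leukemia these pathways are known for their links to blast survival and drug response.

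In DS-5272-treated cells Xbp1 mRNA rose and Asns and Atf5 mRNA fell, and the other members did not pass the test. Of the 9 members that passed the filter of a mean of 1 FPKM (fragments per kilobase of transcript, scaled to the sample's sequencing depth), 1 was called higher and 2 lower by limma at an adjusted p under 0.05. These counts stand beside a background of 24.2% of the 11130 tested genes called higher and 22% called lower. The replicate number was also entered as a block, although the labels name no pairing. With it, 3 members (Ddit3, Ppp1r15a and Xbp1) were called higher and 2 (Asns and Atf5) lower, against 30.3% and 24.9% of all tested genes. The groups did not overlap for 3 members (Asns, Atf5 and Xbp1), against 61.8% of tested genes. Among same-numbered samples, 4 of the tested members (Ddit3, Ppp1r15a, Xbp1 and Herpud1) were higher with DS-5272 in all 3 pairs, where the background was 41.8%, and 2 (Asns and Atf5) were lower in all 3, where it was 37.3%. All of these shares of the members were near or below the background.

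**Figure D1:**
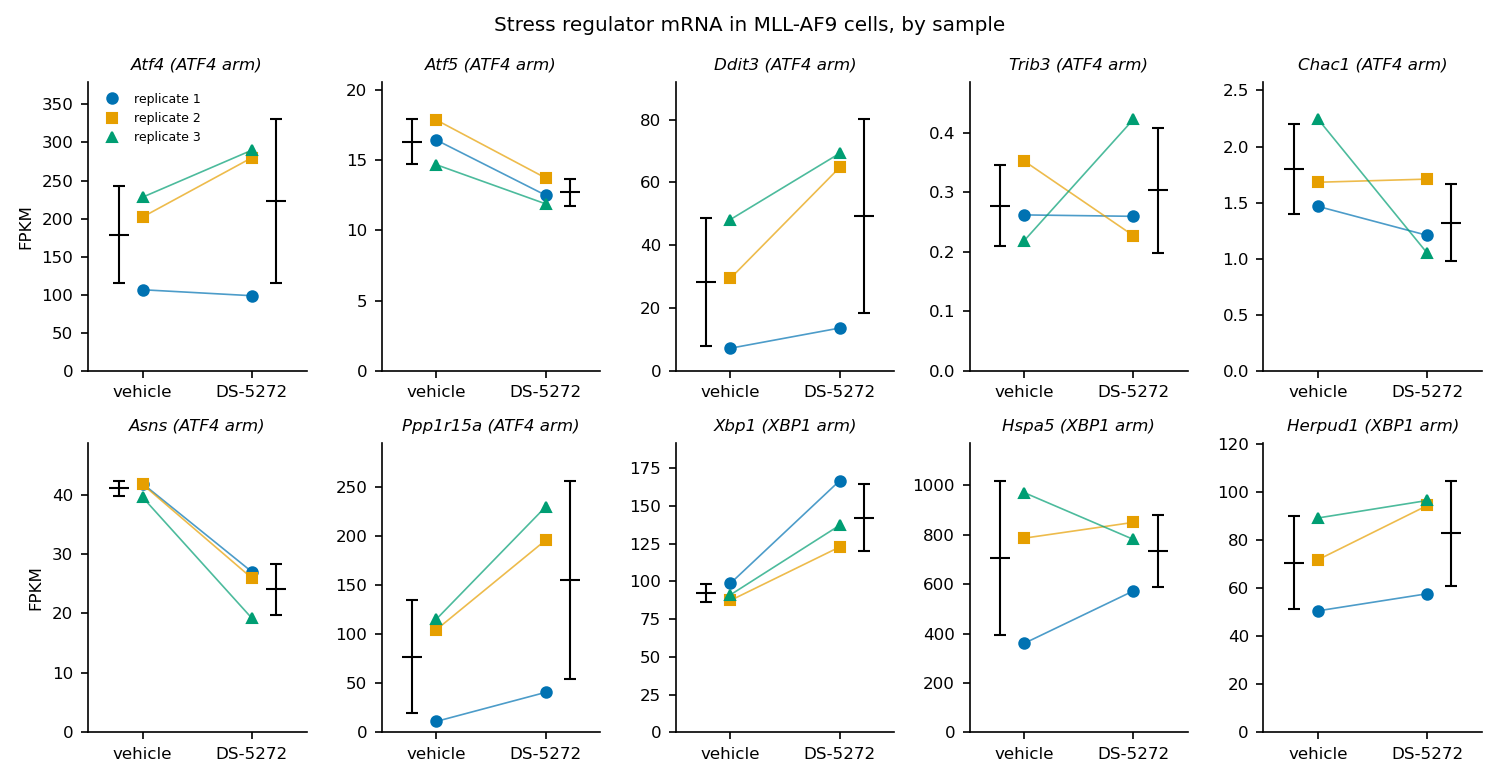
FPKM of each of the 10 members in each sample, with same-numbered samples of the 2 groups joined by a line, and black bars for the mean and SD of 3 samples. Asns and Atf5 were lower and Xbp1 higher in every DS-5272-treated sample than in any vehicle sample, while replicate 1 of both groups was lowest for Atf4, Ddit3, Ppp1r15a, Hspa5 and Herpud1.

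On the per-length scale of FPKM, the mean level in vehicle-treated cells fell in the order Hspa5 (706 ± 313, SD, n = 3), Atf4 (179 ± 64.0), Xbp1 (92.4 ± 5.76), Ppp1r15a (77.3 ± 57.4), Herpud1 (70.5 ± 19.3), Asns (41.0 ± 1.29), Ddit3 (28.3 ± 20.5), Atf5 (16.3 ± 1.59), Chac1 (1.8 ± 0.401) and Trib3 (0.278 ± 0.0682). The vehicle samples of Ppp1r15a ran from 11.3 to 115.7 FPKM and overlapped those of Atf4, Xbp1, Herpud1, Asns, Ddit3 and Atf5. Those of Ddit3 (7.22 to 48.2) overlapped those of Asns and Atf5, and those of Xbp1 overlapped those of Herpud1, so the ranges do not separate these neighbours. Within every vehicle sample Atf4 was above Ppp1r15a, Ppp1r15a above Ddit3 and Xbp1 above Herpud1. The other overlapping neighbours changed order between samples. Trib3 and Chac1, commonly used as readouts of ATF4 and CHOP activity, had the lowest levels.

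The promoters of 4 members are shown because they hold motifs of ATF4 or of the ER stress response, so that members sharing a motif can be compared with how their mRNA moved. Windows of 250 bases before to 50 bases after the transcript start (RefSeq, GRCm38.p6) were found for all 10 members, in 11 windows, and were searched on both strands for 3 motifs. The ATF4 composite element with C/EBP partners, TGATGNAA, was in 3.97% of all 32851 such windows. The ER stress response element, CCAAT and then CCACG after a gap of 9 bases, which binds ATF6 with NF-Y, was in 0.119%, and its second form, ATTGG and then CCACG after a gap of 1 base, in 0.0365%. These motifs were found in 5 members. The 250 bases before the start of 4 of them follow, 5′ to 3′ on the gene's strand, with the matches in capitals.
Asns (chr6:7693210-7693459, minus strand): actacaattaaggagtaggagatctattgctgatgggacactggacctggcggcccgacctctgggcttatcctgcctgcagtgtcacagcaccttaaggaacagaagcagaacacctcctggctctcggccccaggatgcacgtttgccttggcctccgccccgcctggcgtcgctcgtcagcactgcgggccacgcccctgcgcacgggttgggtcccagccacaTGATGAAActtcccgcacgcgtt
Chac1 (chr2:119350992-119351241, plus strand): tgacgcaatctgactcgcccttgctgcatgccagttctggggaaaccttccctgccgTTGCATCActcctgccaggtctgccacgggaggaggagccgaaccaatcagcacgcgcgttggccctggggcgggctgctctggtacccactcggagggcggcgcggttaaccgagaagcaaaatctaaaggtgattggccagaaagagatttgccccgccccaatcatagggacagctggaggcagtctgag
Hspa5 (chr2:34771840-34772089, plus strand): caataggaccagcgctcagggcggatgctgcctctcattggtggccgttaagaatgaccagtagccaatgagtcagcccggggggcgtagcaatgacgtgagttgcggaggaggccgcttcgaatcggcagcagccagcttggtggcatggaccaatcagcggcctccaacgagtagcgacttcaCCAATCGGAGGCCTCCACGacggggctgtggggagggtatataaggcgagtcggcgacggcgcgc
Herpud1 (chr8:94386179-94386428, plus strand): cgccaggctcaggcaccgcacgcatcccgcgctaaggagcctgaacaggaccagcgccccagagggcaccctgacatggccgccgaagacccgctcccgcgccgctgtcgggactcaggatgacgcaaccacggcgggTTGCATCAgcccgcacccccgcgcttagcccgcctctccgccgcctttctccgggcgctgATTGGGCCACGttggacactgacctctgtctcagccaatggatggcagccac
In Asns the match to the composite element lay 23 to 16 bases before the start. In Chac1 it lay on the opposite strand, 193 to 186 bases before the start. Hspa5 held the ER stress response element 65 to 47 bases before the start. Herpud1 held both kinds, the composite element at 112 to 105 bases and the second ER element at 52 to 42 bases before the start. Trib3 had a match to the composite element at bases 15 to 22 of the transcript. No match was found in these windows of Atf4, Atf5, Ddit3, Ppp1r15a or Xbp1, which says only that these letters are not there. A match is a description of the sequence and not a measured binding site. These distances are from RefSeq starts, while the gene positions given below are those of GENCODE, whose starts differ for some genes. By the GENCODE positions the matches of Asns and Hspa5 lie inside the gene and that of Trib3 before it.

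Of the transcription factors of the ATF4 arm, Atf4 itself did not pass the test. Atf4 (chr15:80255184-80257541 in GRCm38, plus strand) was at 106.6, 202.1 and 228.1 FPKM in replicates 1, 2 and 3 of the vehicle group and at 98.8, 280.0 and 289.9 FPKM in those of the DS-5272 group. Replicate 1 was low in both groups and the groups overlapped. The log2 fold change was 0.23 ± 0.48 (SE; adjusted p = 0.705), with a 95% interval of −0.90 to 1.37. It turned to −0.032 when each sample was rescaled to a common total (TPM), to −0.14 under quantile normalization, and to −0.10, −0.0062 and −0.031 without vehicle replicate 1, DS-5272 replicate 2 and DS-5272 replicate 3. Without both samples numbered 1, a choice made after seeing the data, Atf4 was 0.41 higher on the log2 scale (adjusted p = 0.0438).

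Atf5, a bZIP factor that is also controlled through eIF2α and is known for its link to the mitochondrial unfolded protein response, fell. Atf5 (chr7:44812256-44816658, minus strand) was at 16.4, 17.8 and 14.7 FPKM with vehicle and at 12.5, 13.7 and 11.9 FPKM with DS-5272. Every treated sample was below every vehicle sample, by a modest amount. On the log2 scale it fell by 0.34 ± 0.11 (adjusted p = 0.0448). The call was lost without any 1 of vehicle replicates 1, 2 or 3 or DS-5272 replicates 1 or 3, with adjusted p from 0.0654 (without vehicle replicate 3) to 0.165 (without vehicle replicate 2), without the filter on low values (adjusted p = 0.0600) and with eBayes without the trend (adjusted p = 0.0509). Exons of Atf5 overlap those of Il4i1 and Nup62 on the other strand, and the sources do not say whether fragments were assigned by strand.

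Ddit3, which encodes CHOP, was higher in the treated sample of every same-numbered pair. Ddit3 (chr10:127290774-127296288, plus strand) was at 7.22, 29.5 and 48.2 FPKM with vehicle and at 13.7, 64.8 and 69.3 FPKM with DS-5272. The lowest treated sample was below the second vehicle sample, so the groups overlapped, but the treated to vehicle ratios were 1.89, 2.2 and 1.44 in pairs 1, 2 and 3. The log2 fold change of 0.82 ± 0.83 did not pass without the block (adjusted p = 0.438). With the replicate block its error fell to 0.14 and Ddit3 was called higher (adjusted p = 0.00514). Without vehicle replicate 1 the log2 fold change was 0.075 and without DS-5272 replicate 1 it was 1.56, the ends of its range, with 0.47 and 0.43 without DS-5272 replicates 2 and 3 and 1.37 without vehicle replicate 3. It was 0.81 without both samples numbered 1 (adjusted p = 0.0597), which did not pass. Ddit3 shares exon positions with Mars, the methionyl-tRNA synthetase on the other strand, which was at 35.8, 31.1 and 30.2 FPKM with vehicle and lower, at 23.1, 24.0 and 16.8 FPKM, with DS-5272.

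Of the metabolic targets, Asns, the enzyme that makes asparagine from aspartate and glutamine, fell. Asns (chr6:7675169-7693254, minus strand) was at 41.8, 41.7 and 39.5 FPKM with vehicle, a narrow range, and at 27.0, 25.9 and 19.2 FPKM with DS-5272. All treated samples were below all vehicle samples, with a mean ratio of 0.586. The fitted log2 fold change was −0.76 ± 0.14 (adjusted p = 0.00720), and it passed the test in 16 of 17 alternatives, the exception being a call that also required a log2 fold change of 1.

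Chac1, which breaks down glutathione and carries the same promoter motif as Asns, was near the lower limit of the tested range. Chac1 (chr2:119351229-119354381, plus strand) was at 1.47, 1.68 and 2.24 FPKM with vehicle and at 1.21, 1.71 and 1.05 FPKM with DS-5272. The groups overlapped and the log2 fold change of −0.27 ± 0.17 did not pass (adjusted p = 0.237), with a 95% interval of −0.68 to 0.14.

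The feedback regulators of the arm differed in level by a wide margin. Trib3, a pseudokinase that binds ATF4 and CHOP (chr2:152337422-152344032, minus strand), was at 0.262, 0.353 and 0.219 FPKM with vehicle and at 0.260, 0.227 and 0.423 FPKM with DS-5272. It failed the filter and was not tested, and without a filter its log2 fold change was 0.03 ± 0.07 (adjusted p = 0.807). Ppp1r15a encodes GADD34, which brings protein phosphatase 1 to eIF2α and so restores translation. Ppp1r15a (chr7:45522916-45526268, minus strand) was at 11.3, 105 and 115.7 FPKM with vehicle and at 40.9, 196 and 230.3 FPKM with DS-5272. The treated sample was higher in each pair, by ratios of 3.63, 1.87 and 1.99. Replicate 1 was low in both groups, and the groups overlapped because DS-5272 replicate 1 was below vehicle replicates 2 and 3. The log2 fold change was 1.22 ± 1.02 (adjusted p = 0.353) without the block. With the replicate block the error was 0.18 and Ppp1r15a was called higher (adjusted p = 0.00402). The log2 fold change was 0.16 without vehicle replicate 1 (adjusted p = 0.880), 2.0 without DS-5272 replicate 1 (adjusted p = 0.143) and 0.77 without DS-5272 replicate 3 (adjusted p = 0.623). Without both samples numbered 1 it was 0.94 (adjusted p = 0.0148). The overlapping gene on the other strand, Tulp2, was at 0 to 0.0361 FPKM.

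In the XBP1 and chaperone arm, Xbp1 rose. Xbp1, the transcription factor that drives ER expansion and ER-associated degradation once IRE1 has spliced its mRNA (chr11:5520659-5525893, plus strand), was at 98.7, 87.4 and 91.1 FPKM with vehicle and at 166.7, 122.8 and 137.2 FPKM with DS-5272. All treated samples were above all vehicle samples, with ratios of 1.69, 1.41 and 1.51 within pairs. The log2 fold change was 0.61 ± 0.14 (adjusted p = 0.0124). The call was lost without vehicle replicate 2 (0.57, adjusted p = 0.0552) and when samples were rescaled to a common upper quartile (0.47, adjusted p = 0.0519), to a common total (0.34, adjusted p = 0.20) or by quantile normalization (0.32, adjusted p = 0.206). The common total moved the median of all tested genes by −0.25, and relative to the median of all tested genes Xbp1 stood at 0.56 on the deposited scale, 0.55 on the common total and on the upper quartile, and 0.36 under quantile normalization. The table gives total Xbp1 mRNA and does not separate the spliced form.

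Hspa5, which encodes the ER chaperone BiP, was the most abundant member and did not pass the test. Hspa5 (chr2:34771970-34777547, plus strand) was at 360.6, 786 and 971 FPKM with vehicle and at 573, 850.3 and 781 FPKM with DS-5272. The treated range lay inside the vehicle range. The log2 fold change was 0.16 ± 0.37 (adjusted p = 0.751; 95% interval −0.74 to 1.05), and it turned to −0.11 on the common total, to −0.21 under quantile normalization and to −0.27 without vehicle replicate 1. Herpud1, a membrane protein of the ER degradation machinery (chr8:94386438-94395377, plus strand), was at 50.5, 71.8 and 89.1 FPKM with vehicle and at 57.6, 94.3 and 96.4 FPKM with DS-5272. It was higher in each pair by a small amount, while the groups overlapped. Its log2 fold change of 0.23 ± 0.27 did not pass (adjusted p = 0.508; 95% interval −0.42 to 0.87) and was −0.035 on the common total.

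**Figure D2:**
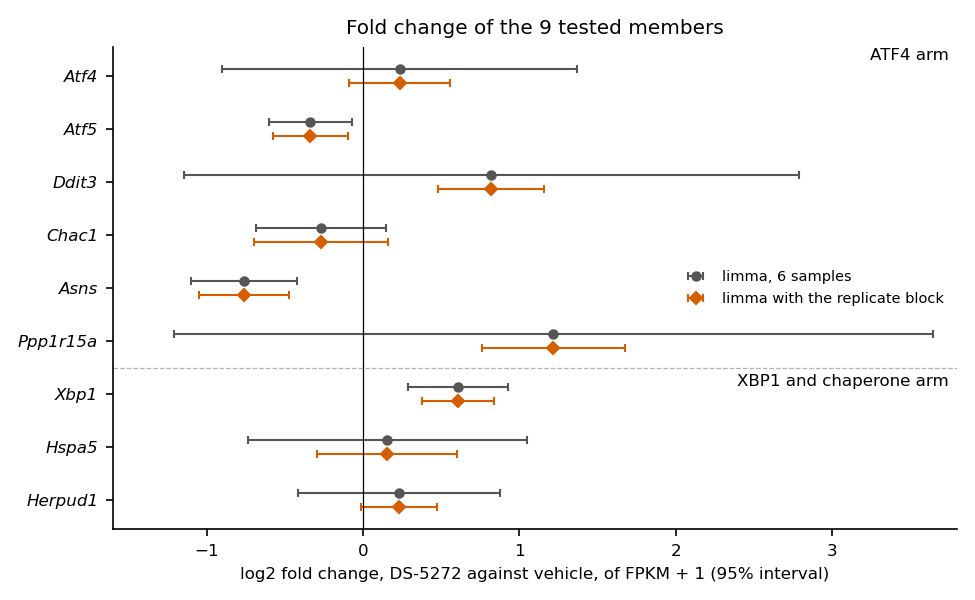
Log2 fold change of FPKM + 1, DS-5272 against vehicle, of the 9 tested members with 95% intervals, from limma on 6 samples without (grey circles) and with (orange diamonds) the replicate block. The intervals of Ddit3 and Ppp1r15a reach below 0 without the block, at −1.15 and −1.21, and start at 0.48 and 0.76 with it.

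Set side by side, the median log2 fold change was −0.02 in the 6 tested genes of the ATF4 arm and 0.23 in the 3 genes of the XBP1 and chaperone arm, beside 0.04 over all tested genes. The ATF4 arm was the wider, from −0.76 (Asns) to 1.22 (Ppp1r15a), against 0.16 (Hspa5) to 0.61 (Xbp1) in the XBP1 and chaperone arm. The mean log2(FPKM + 1) of the 6 tested ATF4 arm genes, without Trib3, was 4.04, 5.07 and 5.22 in the vehicle replicates. It was 4.27, 5.31 and 5.21 in the DS-5272 replicates, so the groups overlapped. The same mean over the XBP1 and chaperone arm was 6.94, 7.42 and 7.65 with vehicle and 7.48, 7.75 and 7.78 with DS-5272, also with overlap. Both medians moved with single samples and scalings. The XBP1 and chaperone arm was at 0.012 without vehicle replicate 1, at 0.47 without DS-5272 replicate 1, at 0.44 without vehicle replicate 3, at 0.10 and 0.12 without DS-5272 replicates 3 and 2, at 0.091 on the common upper quartile, at −0.035 on the common total and at 0.0077 under quantile normalization. The ATF4 arm ran from −0.28 on the common total to 0.25 without DS-5272 replicate 1, with −0.21 without vehicle replicate 1, −0.20 and −0.11 without DS-5272 replicates 2 and 3, and 0.043 and 0.14 without vehicle replicates 2 and 3. With a filter of a mean of 5 FPKM, which Chac1 failed, the ATF4 arm median was 0.23. That of the XBP1 and chaperone arm was also 0.23, so the arms did not differ there. With 6 and 3 tested genes, and members chosen with earlier results known, the difference between the arms was not tested.

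Within each group, replicate 1 stood apart for 5 members. The mean of replicates 2 and 3 was 9.78 times replicate 1 in the vehicle group and 5.21 times in the DS-5272 group for Ppp1r15a, and 5.38 and 4.91 times for Ddit3. For Atf4 it was 2.02 and 2.89 times, for Hspa5 2.44 and 1.42 times, and for Herpud1 1.59 and 1.65 times. Asns, Atf5 and Xbp1 did not share this step, with ratios of 0.780 to 1.02. Immediate early genes, a list of 11 that includes Fos, Jun and Egr1 and is known to respond within minutes to growth signals and stress, had the same low replicate 1. Their summed level was 320 FPKM in vehicle replicate 1 against 3508 and 3695 FPKM in replicates 2 and 3. In the DS-5272 group it was 1211 FPKM in replicate 1 against 6030 and 7981 FPKM. Between the groups 1 of 11 was called higher without the block, against 24.2% of all tested genes. Each of the 11 immediate early genes was higher with DS-5272 in all 3 same-numbered pairs, against 41.8% of all tested genes. Their part in the levels of Ppp1r15a, Ddit3, Atf4, Hspa5 and Herpud1 was not tested.

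**Figure D3:**
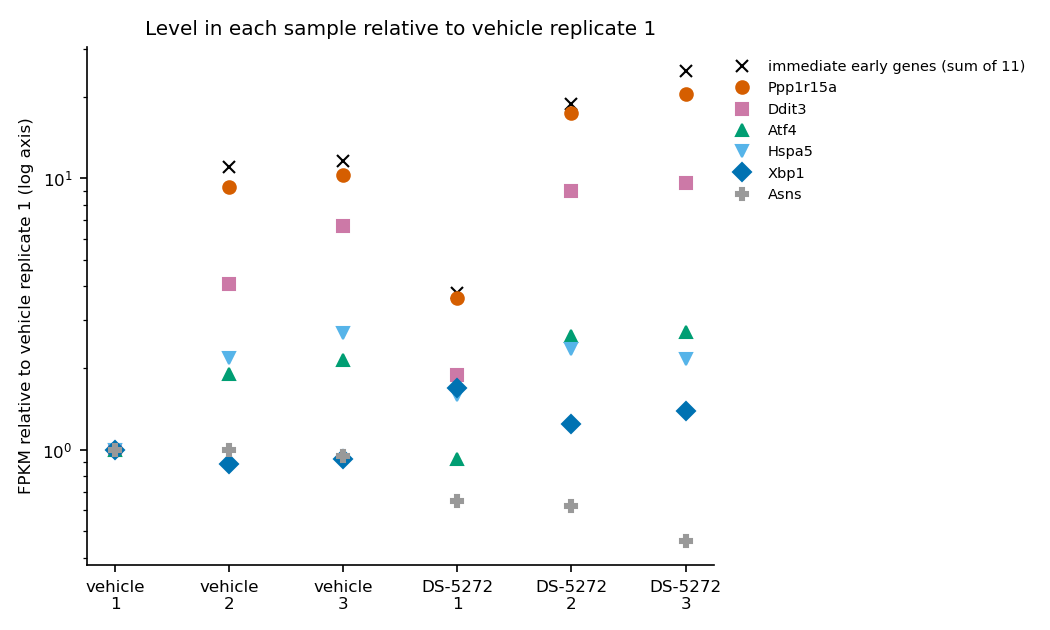
FPKM in each sample divided by that in vehicle replicate 1, on a log axis, for 6 members and for the summed level of 11 immediate early genes. Ppp1r15a, Ddit3, Atf4 and Hspa5 and the immediate early genes were higher in replicates 2 and 3 than in replicate 1 of the same group, while Xbp1 was higher and Asns lower in all DS-5272 samples than in all vehicle samples.

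Across the 6 samples, these members formed 2 loose sets by the Pearson correlation of log2(FPKM + 1). Ddit3 correlated at 0.995 with Herpud1, at 0.978 with Ppp1r15a, at 0.960 with Atf4 and at 0.905 with Hspa5. Asns correlated at 0.90 with Atf5 and at −0.81 with Xbp1, and at −0.38 with Atf4. These values describe 6 samples that share the treatment contrast and the step between replicates, and no p is given. Over 8236 genes that averaged 5 FPKM or more, the entries most like Atf4 were LOC100861991 (r = 0.9995), Nt5c (r = 0.998), Zfp954 (r = 0.997), Slc20a1 (r = 0.997) and Rsrc2 (r = 0.996). The entries most like Hspa5 were Cd69 (r = 0.993), Hist1h2bc (r = 0.982), Tmed2 (r = 0.981), Btg3 (r = 0.976) and Prom1 (r = 0.973). LOC100861991 ran from 222 to 627 FPKM and tracked Atf4 in every sample, and the gene tables used here do not list it. Whether this entry shares fragments with Atf4 was not tested, so the level of Atf4 and its place among the members may depend on how such fragments were assigned.

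The wider pathways were followed in 10 lists of 145 genes, of which 139 had an entry of their own. Each count of the unblocked fit on the deposited scale is read against the 24.2% of all tested genes called higher and 22% called lower. Those shares do not apply to counts under alternatives. With the replicate block the shares were 30.3% and 24.9%. Over all genes, 2697 were called higher and 2451 lower on the deposited scale. On the common total these were 1717 and 3536, under quantile normalization 2418 and 3135, and without any 1 vehicle replicate 1623 to 1940 and 1389 to 1664. In the lists of amino acid supply, as for Asns, most calls were lower. Of 9 tested genes of ATF4-linked amino acid synthesis, 6 fell (66.7%, against 22% of all tested genes), none rose and the median log2 fold change was −0.99. With the replicate block 1 of them, Gpt2, was called higher (adjusted p = 0.0279). Phgdh, the first enzyme of serine synthesis, fell from 14.3 ± 0.902 to 0.641 ± 0.584 FPKM (log2 fold change −3.28), Shmt2, the mitochondrial serine to glycine enzyme, from 92.2 ± 5.25 to 21.4 ± 11.5 FPKM (−2.21), and Psat1, the next step after Phgdh, from 116 ± 13.7 to 39.2 ± 14.9 FPKM (−1.61). All of these passed in 17 of 17 alternatives. Phgdh averaged under 1 FPKM with DS-5272 and so passed the filter through the vehicle group. The count that fell was 5 with a filter of 5 FPKM and 7 without a filter. Of 11 tested genes of tRNA charging, 8 fell (72.7%, against 22%) and none rose (median −0.59), among them the synthetases Yars (−1.11), Eprs (−0.79) and Iars (−0.78). This count was 5 without vehicle replicate 1 or 2, and Iars lost its call in 10 of 17 alternatives, among them those without vehicle replicate 1 (adjusted p = 0.139), 2 (0.0975) or 3 (0.0920), without DS-5272 replicate 2 (0.0654) and without a filter (0.0884).

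Among 6 tested amino acid transporters, 3 fell (50%, against 22% of all tested genes) and 1 rose (16.7%, against 24.2%), with a median of −0.25. The arginine and lysine transporter Slc7a1 (−1.40), the leucine transporter Slc7a5 (−0.95) and the glutamine transporter Slc1a5 (−0.90) fell. Slc7a5 and Slc1a5 lost their calls without vehicle replicate 2 (adjusted p = 0.0781 and 0.0603) or 3 (0.0573 and 0.0506), which left 1 lower. Slc7a11, the cystine importer that feeds glutathione synthesis, moved the other way, from 0.377 ± 0.136 to 2.11 ± 0.535 FPKM (log2 fold change 1.17, adjusted p = 0.00412). Slc7a11 passed the filter of 1 FPKM only through its treated level, which favours a call in that direction. Without a filter it was still called (adjusted p = 0.00714), and with a filter of 5 FPKM the count called higher was 0. With the replicate block 3 transporters were called higher and 3 lower, and without DS-5272 replicate 1 the count called higher was 2.

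In the list of ATF4 and CHOP stress effectors, unlike for Asns, the higher calls outnumbered the lower. Of 13 tested genes, 5 rose (38.5%, against 24.2% of all tested genes) and 1 fell (7.69%, against 22%), with a median of 0.48. With the replicate block 6 were called higher. Sesn2, which restrains mTORC1 and is also a p53 target, rose from 7.19 ± 0.524 to 32.4 ± 17.7 FPKM (log2 fold change 1.91) and passed in 17 of 17 alternatives. Nfil3, a bZIP repressor, rose from 32.6 ± 12.9 to 108.9 ± 51.4 FPKM (1.67), and Gdf15, a stress cytokine that p53 also induces, from 0.506 ± 0.238 to 3.53 ± 2.16 FPKM (1.46). Gdf15, like Slc7a11, passed the filter of 1 FPKM only through its treated level. With a filter of 5 FPKM 4 genes of the list were called higher. Nfil3 lost its call without vehicle replicate 1 or 2 or DS-5272 replicate 2 or 3 (adjusted p = 0.0536 to 0.0680), Gdf15 without any replicate other than DS-5272 replicate 2 (0.0557 to 0.0752), and the count of risen genes fell to 2 without vehicle replicate 1 or 2 or DS-5272 replicate 3 and to 3 without vehicle replicate 3 or DS-5272 replicate 2. Ero1l, the ER oxidase that CHOP is known to induce, fell by 0.31 (adjusted p = 0.0410), a call lost without any single replicate (0.0529 to 0.169). Atf3, a partner of ATF4 named here, like Gpt2 and Fkbp11, after its values were seen, was at 0.777, 20.2 and 28.8 FPKM with vehicle and at 14.7, 142 and 170.8 FPKM with DS-5272. Its log2 fold change of 2.81 did not pass without the block (adjusted p = 0.119), and Atf3 was called higher with the replicate block (adjusted p = 0.000350). It had the same low replicate 1 as Ddit3 and Ppp1r15a.

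Control of eIF2 itself was split. Of 14 tested genes, 4 rose (28.6%, near the 24.2% of all tested genes) and 7 fell (50%, against 22%), with a median of −0.34, and with the replicate block 6 were called lower. Eif2ak3, which encodes PERK, rose from 12.7 ± 0.575 to 20.4 ± 3.21 FPKM (log2 fold change 0.64, adjusted p = 0.00945), as did Eif2b2 (0.62) and Impact (0.54), a GCN2 inhibitor. The eIF2B subunits Eif2b3 (−0.84) and Eif2b1 (−0.81) and the eIF2 subunit Eif2s3x (−0.79) fell. Without vehicle replicate 2 or 3 the count that fell was 3, and Eif2b3 lost its call, at an adjusted p of 0.0520 or 0.05002. On the common total 1 gene rose, and Eif2ak3 and Impact were at adjusted p = 0.0522 and 0.0989.

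ER genes that XBP1 and ATF6 are known to serve rose in part on the deposited scale. Of 15 tested genes of ER-associated degradation, 8 rose (53.3%, against 24.2% of all tested genes) and none fell (median 0.33), and with the replicate block 9 were called higher. Edem1, which marks misfolded glycoproteins for degradation and is a classical XBP1 target, rose from 47.8 ± 2.40 to 86.4 ± 6.60 FPKM (log2 fold change 0.84, adjusted p = 0.00237), and its call was lost in 1 of 17 alternatives, the log2 limit of 1. Syvn1, the ubiquitin ligase of this pathway, rose by 0.60, and so did Herpud2, by 0.60. The count was 3 on the common total and without vehicle replicate 3, and 5 without vehicle replicate 1 or 2, and Herpud2 lost its call without any vehicle replicate or DS-5272 replicate 2 (adjusted p = 0.0609 to 0.0988). Of 21 tested ER chaperones and folding enzymes, 8 rose (38.1%, against 24.2%) and none fell (median 0.11), with the disulfide isomerases P4hb (0.51) and Pdia3 (0.47) and the BiP co-chaperone Dnajb11 (0.44) in front. With the replicate block 10 were called higher and 1 lower. Dnajb9, another BiP co-chaperone, named here after its values were seen, was at adjusted p = 0.0717 without the block and 0.00294 with it, and Fkbp11 was the 1 called lower with it (adjusted p = 0.0262). The count called higher was 0 on the common total, with 1 fallen, 1 under quantile normalization, with 3 fallen, 1 without vehicle replicate 1 or 2, and 4 without vehicle replicate 3. P4hb lost its call without any replicate other than DS-5272 replicate 1 (0.0535 to 0.0795), and Pdia3 without vehicle replicate 1 (0.0644) or 2 (0.0726).

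The sensors above Xbp1 moved little. Of 4 tested sensors and proteases, Ern1, which encodes IRE1, rose by 0.37 (adjusted p = 0.0315), Atf6b by 0.25 (0.0491), and Mbtps1, the protease that activates ATF6, fell by 0.32 (0.0308). With the replicate block 1 was called higher and 1 lower, and Atf6b lost its call (0.0581). None of the 4 was called higher on the common total, where Atf6b was at −0.0087, or when any 1 vehicle replicate was left out, and 1 was when any 1 DS-5272 replicate was left out, while Mbtps1 lost its call without any vehicle replicate or DS-5272 replicate 2 (0.0698 to 0.102). In ER translocation and the secretory path, 1 of 30 tested genes rose (3.33%, against 24.2%) and 3 fell (10%, against 22%), with a median of −0.02. With the replicate block 3 were called higher and 4 lower. Serp1, which steadies the translocon under stress, rose from 215 ± 7.42 to 348 ± 12.3 FPKM (log2 fold change 0.69, adjusted p = 0.00365), and lost its call under quantile normalization (0.30, adjusted p = 0.110). Kdelr2 (−0.44), Stt3b (−0.43) and Ssr1 (−0.32) fell, and none of the 3 was called without vehicle replicate 2 or 3 (0.0685 to 0.116). The count that fell was 1 without vehicle replicate 1, 5 without DS-5272 replicate 1, 6 on the common total and 9 under quantile normalization.

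Mitochondrial chaperones and proteases, the genes of the mitochondrial unfolded protein response to which Atf5 is linked, were mostly lower, as Atf5 was. Of 8 tested genes, 5 fell (62.5%, against 22% of all tested genes) and none rose (median −0.73). Hspa9, the mitochondrial Hsp70, fell from 183 ± 5.59 to 78.5 ± 28.4 FPKM (log2 fold change −1.28), Hspd1, the mitochondrial Hsp60, from 154 ± 4.39 to 71.6 ± 27.6 FPKM (−1.18), and the protease subunit Clpp from 23.3 ± 0.528 to 12.6 ± 2.90 FPKM (−0.86). Hspd1 was at adjusted p = 0.0539 to 0.0565 without any 1 vehicle replicate.

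**Figure D4:**
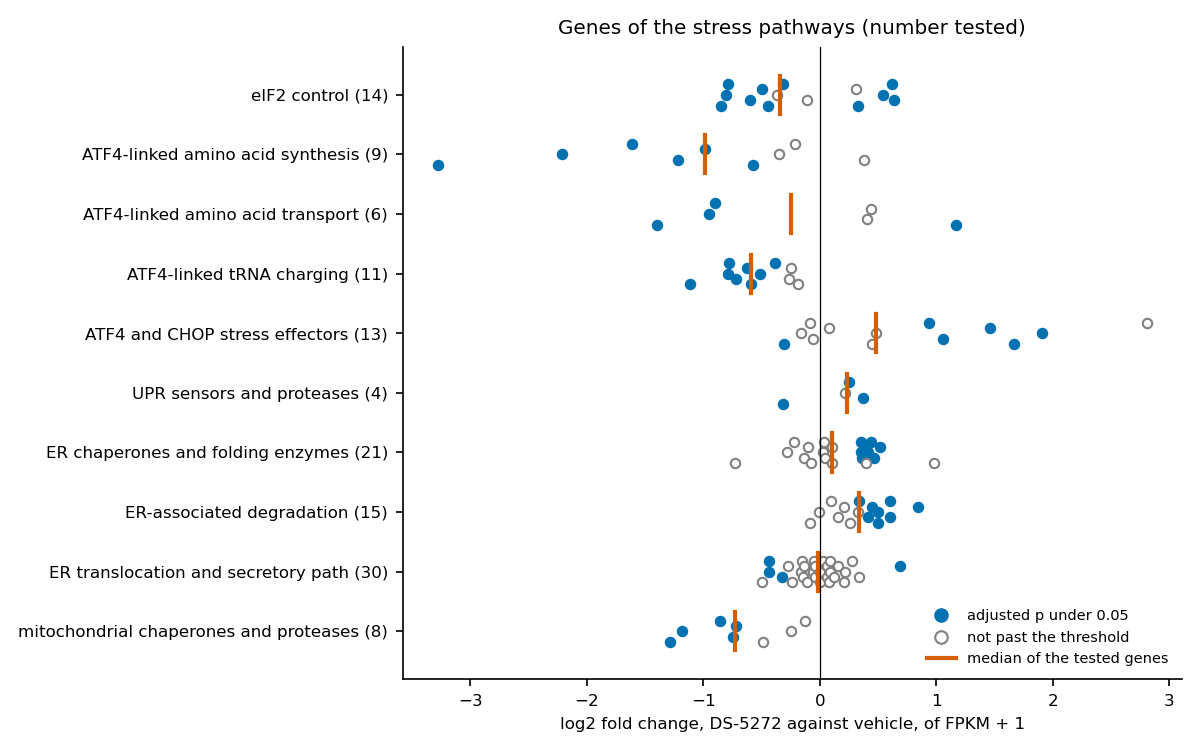
Log2 fold change of FPKM + 1, DS-5272 against vehicle, of each tested gene of the 10 pathway lists (number tested in brackets), filled in blue where the adjusted p was under 0.05, with the median of each list as an orange line. Medians ran from −0.99 for amino acid synthesis to 0.48 for ATF4 and CHOP stress effectors, and the lowest gene was Phgdh at −3.28.

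Marker genes were checked in the same samples. Each count of calls is read against the 24.2% of all tested genes called higher and 22% called lower. Mef2c, Ly6g, Hba-a2, Spic and Axl were under 1 FPKM in every vehicle sample, so they were tested only through their treated levels. The joined entry of Hoxa9 and Hoxa10 was at 204 to 290.1 FPKM and Meis1 at 66.1 to 109.9 FPKM in all 6 samples, while Mef2c, also tied to this leukemia, was at 0.0984 to 0.295 FPKM with vehicle and 1.54 to 2.45 FPKM with DS-5272. Kit, a progenitor marker, went from 30.5 to 45.0 FPKM with vehicle down to 4.94 to 12.1 FPKM with DS-5272, and the myeloid integrin Itgam from 139.7 to 190.4 up to 530.2 to 1087 FPKM. The pan-leukocyte gene Ptprc was at 66.0 to 84.5 FPKM with vehicle and 140.8 to 214 FPKM with DS-5272, and of 5 tested markers of this list 3 were called higher and 1 lower. The p53 targets Cdkn1a and Mdm2 averaged 22.8 and 34.5 FPKM with vehicle and 211 and 110.3 FPKM with DS-5272. The treated samples were uneven. Cdkn1a was at 14.8, 28.1 and 25.5 FPKM with vehicle and at 32.3, 117 and 485 FPKM with DS-5272. Mdm2 was at 27.1, 36.3 and 40.0 FPKM with vehicle and at 42.6, 78.8 and 210 FPKM with DS-5272. Their log2 fold changes of 2.43 and 1.36 passed with the replicate block (adjusted p = 0.0137 and 0.0148) and not without it (0.0611 and 0.0733). Genes of maturing neutrophils summed to 385 to 1646 FPKM with vehicle and 2532 to 9179 FPKM with DS-5272, with 6 of 9 called higher, and bone marrow macrophage markers to 60.6 to 115 and 187 to 428 FPKM, with 4 of 8 called higher. All macrophage markers but Emr1 were highest in DS-5272 replicate 1. Across DS-5272 replicates 1, 2 and 3, Cd5l was at 61.7, 1.76 and 4.43 FPKM and C1qa at 38.4, 6.92 and 6.64 FPKM. Emr1 went the other way, at 59.8, 79.1 and 116 FPKM. Axl and Vcam1 overlapped between the groups. Erythroid markers went from 2.53 to 4.70 up to 12.8 to 147 FPKM, with 2 of 3 tested called higher. Hba-a1 and Hba-a2 made most of the treated sums, while Klf1 was at 0.188 to 0.407 FPKM with vehicle and 0.0210 to 0.261 FPKM with DS-5272. Plasma cell markers, whose cells are rich in Xbp1, summed to 0.671 to 1.39 FPKM with vehicle and 1.62 to 5.30 FPKM with DS-5272, and those of T and NK cells to 0.637 to 1.16 and 1.90 to 5.97 FPKM. Megakaryocyte markers summed to 1.68 to 2.08 FPKM with vehicle and 4.32 to 6.95 FPKM with DS-5272, and those of stroma and endothelium to 1.21 to 2.63 and 3.17 to 6.61 FPKM. All of these sums were higher in every treated sample, but not every gene was. Under 1 FPKM in all samples were 6 of 8 T and NK cell markers, leaving Cd4 and Gzma (3.28 and 1.95 FPKM in DS-5272 replicate 1). Klrb1c was at 0.173 to 0.188 FPKM with vehicle and 0.146 to 0.188 FPKM with DS-5272. Of 6 stroma and endothelium markers 5 were under 1 FPKM, and Col1a1 made most of that sum. B cell markers overlapped, at 4.32 to 5.02 and 3.39 to 4.34 FPKM. No list had a marker at 0 in all samples. Their part in the levels of Xbp1, Asns, Atf5 and the pathway genes was not tested, and in bulk RNA fewer cells of a type and less RNA per cell cannot be told apart. Relative depth, read from the steps of low FPKM values with vehicle replicate 1 set to 1, was 0.809 and 0.886 in the other vehicle samples and 0.745, 0.653 and 0.540 in the DS-5272 samples, so the treated samples were the shallower and low genes such as Trib3 and Chac1 were read with less precision there.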

How the data were processed

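RNA-Seq libraries of total RNA from 6 samples (3 vehicle, 3 DS-5272) were made with a strand-specific kit. Per the submitters' processing notes the authors used cutadapt 1.8.1, FastQC, TopHat2 2.1.1 and Cufflinks 2.2.1 with GRCm38, and deposited FPKM per gene, which are normalized for length and depth and are not counts. Read totals are not part of the table, so no counting intervals were given.

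Lines sharing a symbol were summed (26632 lines, 26082 names), and the 11130 that averaged 1 FPKM or more were kept. Groups were compared with limma 3.58.1 in R 4.3.3 (lmFit, eBayes with trend, two-sided) on log2(FPKM + 1), a scale that understates the change of low genes, with Benjamini-Hochberg adjustment over all tested genes and a threshold of 0.05. With 3 against 3 samples an exact permutation test cannot go below p = 0.1. The script was tested on simulated data. Tables and figures came from Python 3.11.15 (numpy 2.4.6; pandas 2.3.3; matplotlib 3.10.9) scripts. Members and lists were chosen with earlier results of these data known. Named genes were all members, the up to 3 largest calls per direction in each list, Cdkn1a and Mdm2, and the 5 genes most like Atf4 and Hspa5.

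Replicate numbers run from 1 to 3 in both groups, with no shared litter, batch or day named in the sources used here. Deviations from the group means correlated by 0.66, 0.21 and 0.43 in same-numbered pairs, all above 0.1. In other pairs they correlated by −0.58 to 0.34. These values were taken as grounds for the replicate block. However, vehicle replicate 2 correlated by 0.34 with DS-5272 replicate 3, above the 0.21 of same-numbered pair 2. The values therefore do not settle that samples with the same number are pairs, and they come from the same data that the block was fitted to. The unblocked fit is reported, with the replicate block given beside members and list counts whose calls it changed. Other alternatives were another pseudocount, filters, scalings, eBayes without trend, a log2 fold change of 1, leaving out each sample and, added later, leaving out both samples numbered 1.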

Additional observations from a re-analysis of the deposited data

How the results depend on the processing

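The count of members called higher (1, Xbp1) was 0 on a common upper quartile, on a common total and under quantile normalization. It was also 0 where a log2 change of 1 or more was required as well. With the replicate block it was 3 (Ddit3, Ppp1r15a and Xbp1). Without both samples numbered 1, an alternative chosen after seeing the data, it was also 3, but with Atf4 in place of Ddit3. It ran from 0 to 1 when 1 sample was left out, with 0 without vehicle replicate 2. The count of members called lower (2, Asns and Atf5) was 1 without a filter, with eBayes without the trend and without both samples numbered 1, 0 with the log2 limit of 1, and 1 to 2 when 1 sample was left out. Over all genes, 2697 higher and 2451 lower calls became 978 and 621 with the log2 limit of 1, 1623 to 2934 and 1389 to 2432 when 1 sample was left out, and 1717 higher on the common total. The higher share of calls was 52.4% as deposited, 41.3% on the upper quartile, 32.7% on the common total and 43.5% under quantile normalization.

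Log2 fold changes that turned sign were those of Atf4 (−0.032 on the common total, −0.14 under quantile normalization, −0.10 to 0.74 when 1 sample was left out), Hspa5 (−0.11, −0.21 and −0.27 to 0.44, and −0.10 without both samples numbered 1), Herpud1 (−0.035 on the common total) and Atf6b (−0.0087 on the common total). The replicate block changed the calls of Ddit3 (adjusted p = 0.00514) and Ppp1r15a (adjusted p = 0.00402) and of no other member, and Atf6b lost its call with it (adjusted p = 0.0581). Of 610 values of the 36 named pathway genes under alternatives, 487 kept direction and side of the threshold, 122 lost the threshold and 1 reversed. The cause was not tested. The shallower depth of the treated samples limits low genes such as Trib3 and Chac1.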
